A study of Mus musculus with 6 samples.

Results

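The microRNA genes on the array were taken as every gene whose symbol starts with Mirlet7, or with Mir and a number from 1 to 300, and each gene was read through its brightest probe. The 166 genes were chosen by symbol, and the probe and the dim mark by intensity averaged over all 6 arrays. The rule thus did not use the difference between the groups, but the family was proposed with earlier results of these data known. The single genes described below were in part selected on that difference. They include those that passed the test and those with the highest and lowest differences. The rule found 166 of 19938 measured genes. Of these, 163 are precursor genes and 3 are longer host transcripts (Mir17hg, Mir99ahg and Mir100hg). A gene whose mean intensity lay under 64 was marked dim. This mark fell on 121 of the 166 genes (72.9%, against 45.7% of all genes) and left 45. Mirlet7e, at a mean intensity of 66.7, was the lowest gene above the mark, and Mir199a-1, at 62.0, the highest gene under it.

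The samples were mouse pre-B cells (strain Balb/c, 4 weeks of age) transformed by BCR-ABL1, a constitutively active tyrosine kinase made by a chromosome translocation, and are labelled as BCR-ABL1-driven acute lymphoblastic leukemia. All of them, controls included, are labelled as knockout for Blnk. Blnk, also called Slp65, is an adaptor protein through which signals of the pre-B cell receptor pass into the cell. In 3 samples the cells had been transduced with the empty GFP retrovirus pMIG, and in 3 with Blnk. RNA came from sorted GFP-positive cells 5 days after transduction. The comparison asks which microRNA genes differed once Blnk was put back. Expression from a retrovirus need not match that of the native gene, and separate cultures or animals are not stated for the 3 samples of each group. The p-values therefore reflect the spread among these samples alone, part or all of which may be technical. RNA was measured in bulk, so fewer cells of a type and less RNA per cell cannot be told apart.

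MicroRNAs are made from long primary transcripts. Drosha and Dgcr8 cut a hairpin out of the primary transcript in the nucleus, Xpo5 exports it, and Dicer1 trims it to a short duplex. A strand of that duplex enters an Argonaute protein and pairs, mainly through bases 2 to 8 from its 5′ end (the seed), with messenger RNAs that are then repressed. Several precursors often lie within a single primary transcript, and are then called a cluster. In the B lineage, the miR-17~92 cluster is known for supporting pro-B and pre-B cell survival, miR-150 and miR-34a for limiting early B cell development, miR-155 for mature B cell responses, and the miR-23a cluster for restraining B lymphoid commitment in progenitors. Array probes for these genes are taken here to read precursor and primary RNA, and the mature microRNAs themselves were not measured. Which part of a primary transcript each probe reads is not known here.

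The results turn on the cluster of Mir23a, Mir27a and Mir24-2. Its 3 hairpins lie within 404 bases on the plus strand at chr8:84208518-84208921 of the GRCm38.p6 assembly, in the order Mir23a (chr8:84208518-84208592), Mir27a (chr8:84208672-84208758) and Mir24-2 (chr8:84208815-84208921). No gene of the table spans them on their own strand. The hairpins are given from RefSeq, 5′ to 3′, because they are the parts of the primary transcript the gene names refer to, and capitals mark the mature microRNAs of both arms.
Mir23a: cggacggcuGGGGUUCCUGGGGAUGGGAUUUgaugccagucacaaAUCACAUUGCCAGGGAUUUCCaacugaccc
Mir27a: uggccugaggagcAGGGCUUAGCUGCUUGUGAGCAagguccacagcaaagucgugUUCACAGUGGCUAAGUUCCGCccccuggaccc
Mir24-2: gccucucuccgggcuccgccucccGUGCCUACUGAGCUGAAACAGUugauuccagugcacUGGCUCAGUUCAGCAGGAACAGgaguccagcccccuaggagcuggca

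After any on a single excluded chromosome were dropped, mature sequences from RefSeq (GRCm38.p6) were kept for 149 of the 166 genes. Those below belong to the genes described most closely here, with the seed in capitals. They show which genes of a cluster share a seed and which do not.
miR-23a-3p: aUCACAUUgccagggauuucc
miR-27a-3p: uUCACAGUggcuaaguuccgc
miR-24-3p: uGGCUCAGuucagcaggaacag
miR-17-5p: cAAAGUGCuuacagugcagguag
miR-20a-5p: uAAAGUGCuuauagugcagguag
miR-18a-5p: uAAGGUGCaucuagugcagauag
miR-19a-3p: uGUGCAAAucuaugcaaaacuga
miR-19b-3p: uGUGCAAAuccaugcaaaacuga
miR-142a-5p: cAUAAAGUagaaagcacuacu
miR-142a-3p: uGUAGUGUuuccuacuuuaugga
miR-15a-5p: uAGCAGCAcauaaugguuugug
miR-7a-5p: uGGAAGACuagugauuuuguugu
miR-130b-3p: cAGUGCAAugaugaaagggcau
miR-33-5p: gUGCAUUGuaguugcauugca
The 3 microRNAs of the Mir23a cluster carry 3 different seeds. In the miR-17~92 cluster, miR-17 and miR-20a share a seed, miR-19a and miR-19b share another, and miR-18a has its own.

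Mir23a and Mir27a were lower in the cells given Blnk, each by more than 2-fold. Mir23a read 329, 288 and 323 intensity units in the pMIG samples and 110, 161 and 136 in the Blnk samples. Its mean was 313 ± 22.1 with pMIG and 136 ± 25.5 with Blnk (SD, n = 3 each). The groups lay far apart, and the highest Blnk sample was well under the lowest pMIG sample. On the log2 scale the difference, Blnk minus pMIG, was -1.22 (SE 0.137, 95% interval -1.54 to -0.91), a 2.33-fold lower level, with a limma adjusted p of 0.00288 (Benjamini-Hochberg over all 19938 genes).

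Mir27a read 446, 435 and 512 with pMIG and 178, 242 and 195 with Blnk. Its mean was 464 ± 41.6 against 205 ± 33.2 (SD, n = 3 each). Again no Blnk sample came near a pMIG sample. The log2 difference was -1.19 (SE 0.124, 95% interval -1.48 to -0.90), a 2.28-fold lower level, with a limma adjusted p of 0.00207. Both genes passed under all 13 alternatives to the fit.

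Mir24-2, the last hairpin of the cluster, read 213, 162 and 180 with pMIG and 108, 103 and 148 with Blnk. Its groups did not overlap either, but Blnk 3 lay close to the lowest pMIG sample. The mean was 185 ± 25.9 against 120 ± 24.7 (SD, n = 3 each), and the log2 difference was -0.64 (SE 0.157). The limma adjusted p of 0.0799 missed the threshold of 0.05. Mir24-2 passed under 5 of the 13 alternatives. These were median centring, dim genes left out, 16 added before log2, a mean-variance trend, and Blnk 3 left out (0.0454). Over all 13 the limma adjusted p ran from 0.0178 to 0.261. Within an array, the log2 ratio of the Mir23a probe to the Mir24-2 probe ran from 0.63 to 0.84 in the pMIG samples and was 0.03, 0.64 and -0.12 in the Blnk samples. The ratio of the Mir27a probe to the Mir23a probe ran from 0.44 to 0.66 with pMIG and from 0.52 to 0.69 with Blnk. The first pair of probes kept a less even ratio over the Blnk samples than the second.

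**Figure D1:**
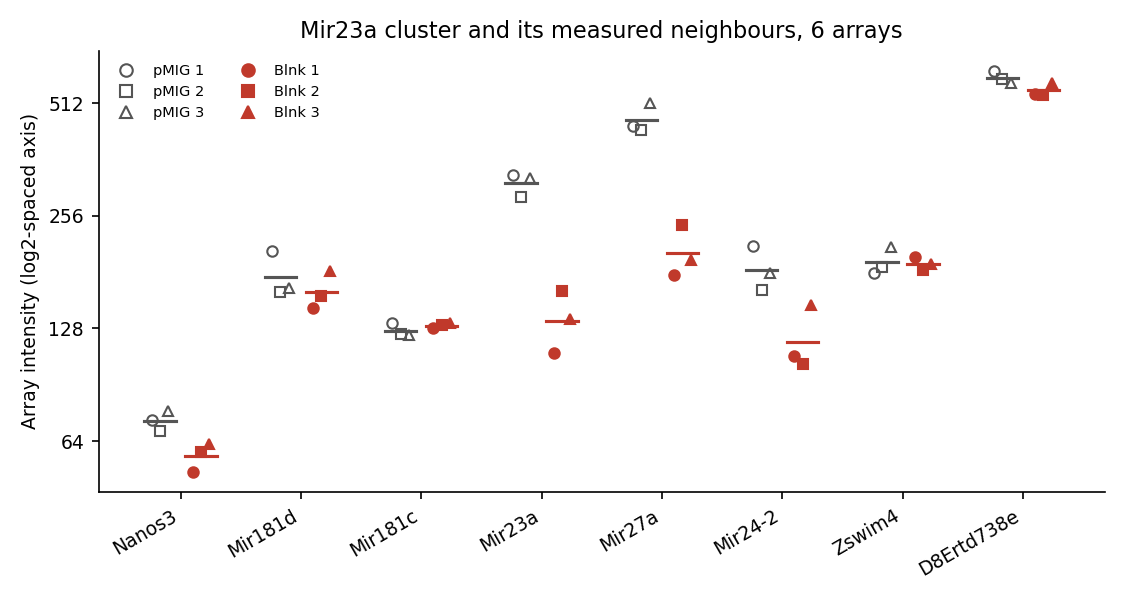
Array intensity (log2-spaced axis) of the 3 genes of the Mir23a cluster and of 5 measured neighbours on the same chromosome, in each of the 6 arrays; lines are means of the log values. Mir23a and Mir27a fall from means of 313 and 464 with pMIG to 136 and 205 with Blnk, while Mir181c, 29.6 kb away, stays between 123 and 132 on all arrays.

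The genes around the cluster did not pass the test. Mir181c and Mir181d lie 29.6 and 29.7 kb before it and form a cluster of their own on the opposite strand. Mir181c read 132, 124 and 123 with pMIG and 128, 131 and 132 with Blnk, a log2 difference of 0.05 (SE 0.0660). Mir181d read 206, 160 and 164 against 145, 156 and 182, a difference of -0.13 (SE 0.125). Both sets overlapped. Zswim4, the next gene after the cluster at 2.02 kb, had means of 193 ± 16.3 and 191 ± 7.55 (SD, n = 3 each) and a log2 difference of -0.01. Nanos3, which encodes an RNA-binding protein of germ cells and lies 32.0 kb before the cluster, read 73, 68 and 77 against 53, 60 and 63. Its groups did not overlap, and its difference of -0.31 had a limma adjusted p of 0.132.

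The paralogous cluster with Mir23b, Mir27b and Mir24-1 lies in Aopep, and its probes carry both names, so it fell outside the rule. The Mir23b probe averaged 121 ± 10.6 with pMIG and 114 ± 25.5 with Blnk (SD, n = 3 each). The Mir27b probe gave 57.0 ± 9.17 and 54.7 ± 7.23, and the Mir24-1 probe 19.0 ± 1.73 and 18.7 ± 1.15. All 3 pairs of groups overlapped. Both clusters encode miR-24-3p.

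Over the whole family, 3 of the 166 microRNA genes passed an adjusted p of 0.05 by limma, 1 higher (Mir33) and 2 lower (Mir23a and Mir27a). Over all 19938 genes, 720 passed (3.61%), 500 higher (2.51%) and 220 lower (1.10%). That split depended on scaling: repeated quantile normalization gave 411 higher and 327 lower, and centring each array on its median gave 417 and 291. At an unadjusted p under 0.05, 5 microRNA genes were higher and 11 lower (9.64% of the 166), against 15.2% of all genes in either direction. The groups did not overlap for 15 microRNA genes (9.04%), 8 higher and 7 lower with Blnk, against 20.0% of all genes. Among the 45 genes that were not dim, this held for 6 (13.3%), against 31.7% of all genes that were not dim. All of these shares are descriptions, since the genes of a cluster are not independent.

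The median log2 difference was -0.05 over the 166 genes and -0.06 over the 45 that were not dim, beside 0.00 and 0.01 for all genes and for all that were not dim. A value below 0 was found for 102 of the 166 genes (61.4%, against 49.6% of all genes) and for 33 of the 45 (73.3%, against 47.0%). Most of these values were small, as over all genes: 135 of the 166 lay within 0.2 of 0, and so did 16468 of all 19938 genes. The arrays took unequal parts in this. Ties were credited to the first array in the order pMIG 1 to 3, then Blnk 1 to 3. On that count, pMIG 1 gave the highest of the 6 values for 23 of the 45 genes and the lowest for 3. Blnk 1 gave the highest for 0 and the lowest for 14, though it tied with pMIG 2 at 117 for Mir17hg. Leaving out pMIG 1 took the family's median to -0.021, beside 0.017 for all genes. Without pMIG 2 it was -0.037 beside -0.0088, and without pMIG 3 -0.058 beside -0.0079. Leaving out Blnk 1 took it to -0.015, beside -0.00094 for all genes. Without Blnk 2 it was -0.037 beside 0.012, and without Blnk 3 -0.069 beside -0.011. The part of these arrays in the lean below 0 was not tested beyond this.

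**Figure D2:**
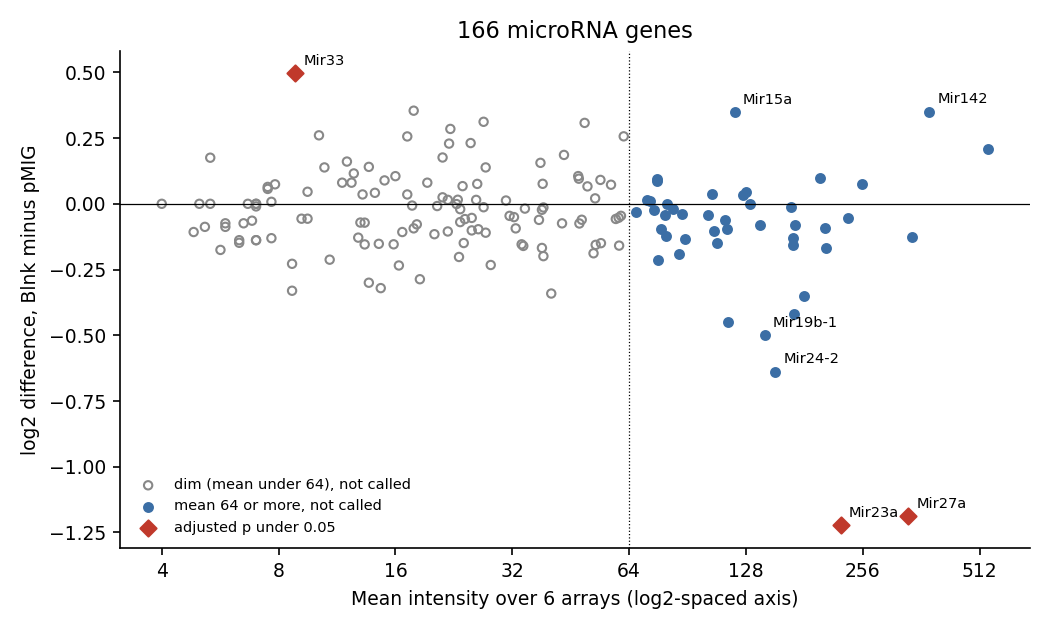
Mean intensity over the 6 arrays (log2-spaced axis) against the log2 difference, Blnk minus pMIG, for the 166 microRNA genes; the dotted line marks the intensity of 64 under which a gene is dim. The points crowd around 0 at every level, with Mir23a and Mir27a alone below -1 and Mir33 the only called gene above 0.

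Mir33 was the only microRNA gene called higher, and it was dim. It lies in an intron of Srebf2, the master regulator of cholesterol synthesis, and its microRNA represses cholesterol export. Its intensities were 7, 7 and 8 with pMIG and 10, 11 and 10 with Blnk. The groups did not overlap, but they differed by 2 to 4 of the whole-number steps in which the values were deposited. The log2 difference was 0.50 (SE 0.0834), with a limma adjusted p of 0.0185. With 16 added to every intensity before log2 the difference was 0.17 and the adjusted p 0.120, and it also missed 0.05 without any one of the arrays other than pMIG 3. Over the 12 alternatives that kept dim genes the adjusted p ran from 0.0149 to 0.120. The Srebf2 probe averaged 1668 ± 22.0 with pMIG and 1866 ± 37.6 with Blnk (SD, n = 3 each), a log2 difference of 0.16 with an adjusted p of 0.273, which did not pass.

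The miR-17~92 cluster is a textbook oncogenic cluster of B cell leukemia and lymphoma. Its 5 measured precursors all had values below 0, and none passed. Mir19b-1 read 127, 182 and 197 with pMIG and 113, 131 and 109 with Blnk, a log2 difference of -0.50 (SE 0.164, limma adjusted p 0.188). Mir19a read 101, 142 and 157 against 102, 102 and 85, a difference of -0.45 (SE 0.164). Mir20a read 146, 223 and 220 against 136, 169 and 130, a difference of -0.42 (SE 0.178). In each of these, pMIG 1 lay within or beside the Blnk samples and the other 2 pMIG samples lay above them.

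Mir18 showed the same arrangement, with 151, 247 and 215 against 160, 172 and 141 and a log2 difference of -0.35 (SE 0.175). Mir17 read 79, 101 and 95 against 85, 82 and 73, a difference of -0.19 (SE 0.109). The limma adjusted p of the 5 genes lay between 0.188 and 0.480. Without pMIG 1, Mir19b-1 passed at a log2 difference of -0.69 and an adjusted p of 0.0352, within a range of 0.0352 to 0.449 over the alternatives, and it passed under none of the other 12. The other 4 genes passed under no alternative. These 5 differences are not independent readings, since the 5 hairpins are cut from a shared transcript.

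The host transcript Mir17hg read 98, 117 and 112 with pMIG and 117, 112 and 79 with Blnk. The groups overlapped, and the log2 difference was -0.10 (SE 0.153). A probe named for both Mir92-1 and Mir17hg, outside the rule, read 235, 252 and 295 against 192, 224 and 204. Its groups did not overlap, and its log2 difference was -0.33.

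**Figure D3:**
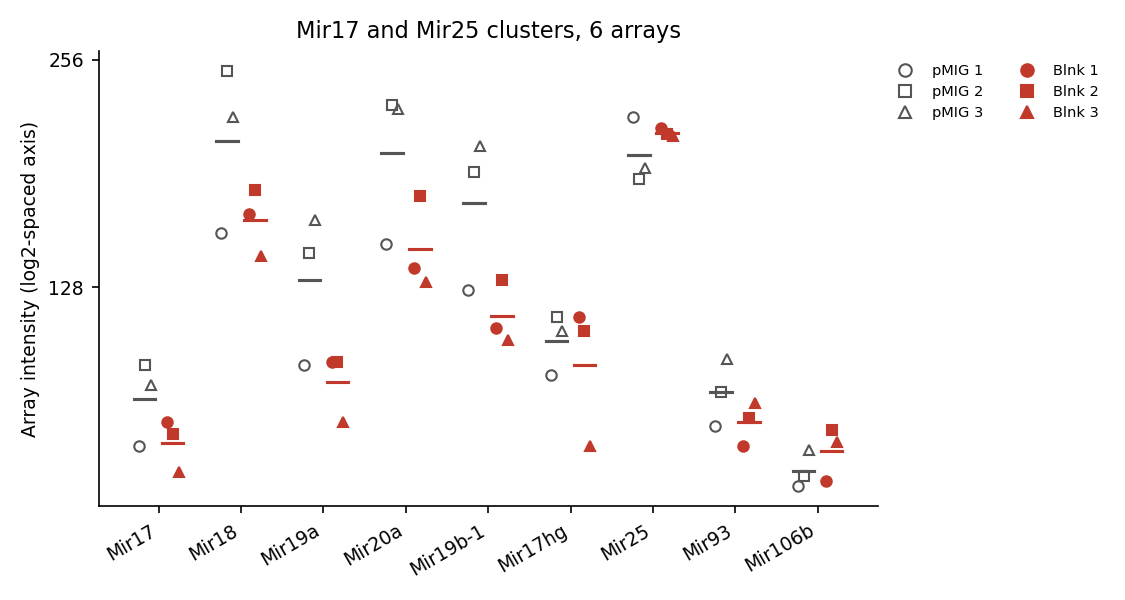
Array intensity (log2-spaced axis) of the miR-17~92 genes, their host transcript Mir17hg and the Mir25 cluster in each of the 6 arrays; lines are means of the log values. For Mir18, Mir19a, Mir20a and Mir19b-1, pMIG 1 lies among or next to the Blnk samples while pMIG 2 and pMIG 3 lie above them.

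The Mir25 cluster, a paralog of miR-17~92 that lies in the replication gene Mcm7, held values on both sides of 0, and none passed. Mir25 read 215, 178 and 184 with pMIG and 208, 204 and 203 with Blnk, a log2 difference of 0.10 (SE 0.0863). Mir93 had means of 93.3 ± 9.50 and 85.0 ± 5.57 and a difference of -0.13, and Mir106b means of 73.3 ± 4.16 and 78.0 ± 6.25 and a difference of 0.09 (SD, n = 3 each). Mcm7 itself differed by -0.08. The 4 genes of the third paralogous cluster on the array, Mir92-2, Mir19b-2, Mir20b and Mir106a, were all dim, with differences between -0.21 and 0.14.

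Grouped by seed, the genes that share AAAGUGC were Mir17, Mir20a, Mir20b, Mir93, Mir106a and Mir106b, with a median log2 difference of -0.10 and 4 of 6 below 0. The 3 genes with the seed GUGCAAA, namely Mir19a, Mir19b-1 and Mir19b-2, had a median of -0.45. In all, 50 seeds were shared by 2 or more of the genes, and none of them held a called gene. No mature sequence kept for another of the 149 genes carried a seed of Mir23a, Mir27a or Mir33. Mir23b and Mir27b, of the paralogous cluster, fell outside the rule, so their seeds were not among those compared.

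Position put 67 of the genes into 28 clusters, defined as genes on the same strand with gaps of at most 10 kb. Of these clusters, 14 held only dim genes and 1, the Mir23a cluster, held a called gene. For 13 genes no position and strand were found in the tables used here, and they entered no cluster. Mir99b, Mirlet7e and Mir125a, for example, form a cluster of 3 that were not dim, with differences of -0.08, -0.03 and -0.04. Mir125a was highest on pMIG 1, at 106 against 63 and 74 on the other pMIG arrays and 66, 76 and 90 with Blnk.

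None of the 8 genes with the highest differences among those that were not dim passed. Mir142, a marker of blood cells, read 262, 351 and 390 with pMIG and 363, 508 and 403 with Blnk. The groups overlapped, and the log2 difference was 0.35 (SE 0.172, limma adjusted p 0.403). Mir15a, a tumour suppressor lost in human chronic lymphocytic leukemia, read 111, 99 and 104 against 127, 166 and 112. Its groups did not overlap, though Blnk 3 was only just above pMIG 1, and the difference was 0.35 (SE 0.139, adjusted p 0.289).

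Mir16-1, which forms a cluster with Mir15a in Dleu2, was dim and read 43, 39 and 40 against 44, 44 and 51, a log2 difference of 0.19 (SE 0.0852). The host Dleu2 was nearly at the bottom of the scale, with means of 6.67 ± 1.53 and 9.33 ± 0.577 (SD, n = 3 each). All 5 genes with the seed AGCAGCA (Mir15a, Mir15b, Mir16-1, Mir16-2 and Mir195a) had values at or above 0, with a median of 0.07, and 4 of them were dim.

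Mir7-1, the brightest microRNA gene, read 442, 516 and 545 with pMIG and 562, 627 and 546 with Blnk. These groups touched without overlapping, and the difference of 0.21 (SE 0.0994) had a limma adjusted p of 0.382. Mir7-1 lies in an intron of Hnrnpk, an abundant RNA-binding protein, whose own difference was 0.01. Mir130b read 81, 80 and 83 against 75, 72 and 64, again without overlap, with a log2 difference of -0.21 (SE 0.0793, adjusted p 0.252). Mir30e, at 0.10, Mir139, at 0.08, and Mir181c complete the 8 highest differences.

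Among the bright genes, Mir92b differed by -0.13, Mir210, the hypoxia-induced microRNA, by -0.06, and Mir187 by -0.17, and the groups of all 3 overlapped. Their 95% intervals ran from -0.33 to 0.07, from -0.28 to 0.17 and from -0.49 to 0.15.

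**Figure D4:**
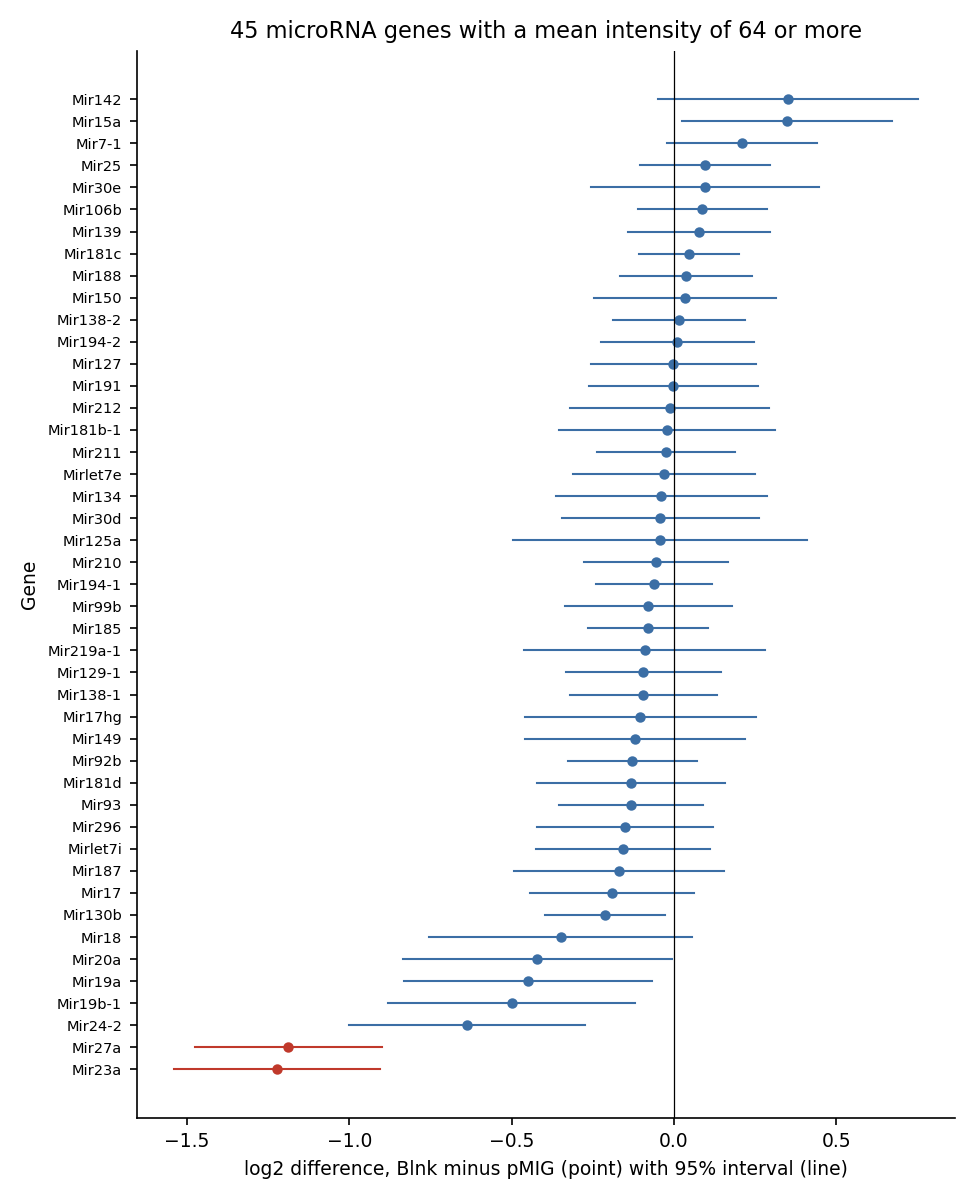
Log2 difference, Blnk minus pMIG, of the 45 microRNA genes with a mean intensity of 64 or more, with 95% intervals from limma (n = 3 arrays a group) and genes ordered by difference. Mir23a and Mir27a (red) are called, and the intervals of Mir24-2, Mir19b-1, Mir19a, Mir20a, Mir130b and Mir15a leave out 0 without passing after adjustment over all genes.

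The other measured microRNAs known from lymphoid cells showed no call. Mir21 and Mir223, also listed as such, were not among the genes of the rule or the probes with several symbols. They were therefore not tested. Mir150 read 121, 121 and 130 with pMIG and 105, 145 and 134 with Blnk, a log2 difference of 0.03 (SE 0.121). Mir155 was just dim, with 56, 59 and 69 against 55, 64 and 58 and a difference of -0.05 (SE 0.100). The p53 target Mir34a was dim, with means of 18.3 ± 1.53 and 17.3 ± 3.06 (SD, n = 3 each). Both sets of values overlapped throughout.

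Of the 6 Mir181 genes, which share the seed ACAUUCA and are known from lymphocyte development, 3 were dim. Their differences ran from -0.16 (Mir181b-2) to 0.18 (Mir181a-1), with a median of -0.04. The tumour-suppressive let-7 group, 9 genes with the seed GAGGUAG, had 2 genes that were not dim, Mirlet7e and Mirlet7i. Mirlet7i read 180, 157 and 200 against 141, 166 and 174, a log2 difference of -0.16 (SE 0.116). Of the 9, 8 lay below 0, none passed, and the median was -0.05. Mir146, Mir29a, Mir29b-1, Mir125b-2 and Mir203 read under 10 in every sample, and Mir125b-1, Mir221 and Mir222 under 30. At such levels 1 whole-number step is a large share of the value. A probe named for both Mir22 and Mir22hg averaged 46.0 in both groups.

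Among the dim genes whose groups did not overlap were Mir103-1, with 21, 18 and 21 against 26, 23 and 24, and Mir103-2, with 44, 44 and 43 against 52, 66 and 46. Their log2 differences were 0.28 (SE 0.0893) and 0.31 (SE 0.126). With Mir107 (0.11) they share the seed GCAGCAU and lie in the pantothenate kinase genes Pank3, Pank2 and Pank1, none of which passed. Mir218-2 read 47, 43 and 45 against 37, 31 and 39, a log2 difference of -0.34 (SE 0.0982, limma adjusted p 0.133), and lies in Slit3.

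A host gene on the same strand was measured for 51 microRNA genes, 40 different hosts in all. Of the 40 hosts, 2 passed (against 3.61% of all genes), both lower with Blnk. An unadjusted p under 0.05 was found for 8 (20.0%, against 15.2%). Of the 40, 26 were not dim. Among all 10833 genes that were not dim, 674 passed and 22.4% had an unadjusted p under 0.05. Pde2a, the cyclic nucleotide phosphodiesterase gene that holds Mir139, read 2533, 2602 and 2502 with pMIG and 1792, 1597 and 1695 with Blnk. The groups lay far apart, and the log2 difference was -0.59 (SE 0.0711, limma adjusted p 0.00409). Mir139 read 272, 225 and 248 against 244, 259 and 282, with overlapping groups and a difference of 0.08 (SE 0.0942). The host and its microRNA probe thus gave different readings, and the test of their difference was not run.

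Ctdspl, the small phosphatase gene that holds Mir26a-1, fell from 395 ± 11.0 to 317 ± 6.66 (SD, n = 3 each), a log2 difference of -0.32 with a limma adjusted p of 0.0403. This call was lost when any 1 of the 6 arrays was left out, and its adjusted p ran from 0.00798 to 0.174 over the alternatives. Mir26a-1 was dim, with 59, 47 and 60 against 45, 50 and 50 and a difference of -0.19. The host of Mir130b, 2610318N02Rik, differed by -0.23 (adjusted p 0.141), close to the -0.21 of its microRNA. Of the 16 pairs whose microRNA gene was not dim, 9 had the same sign in host and microRNA.

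**Figure D5:**
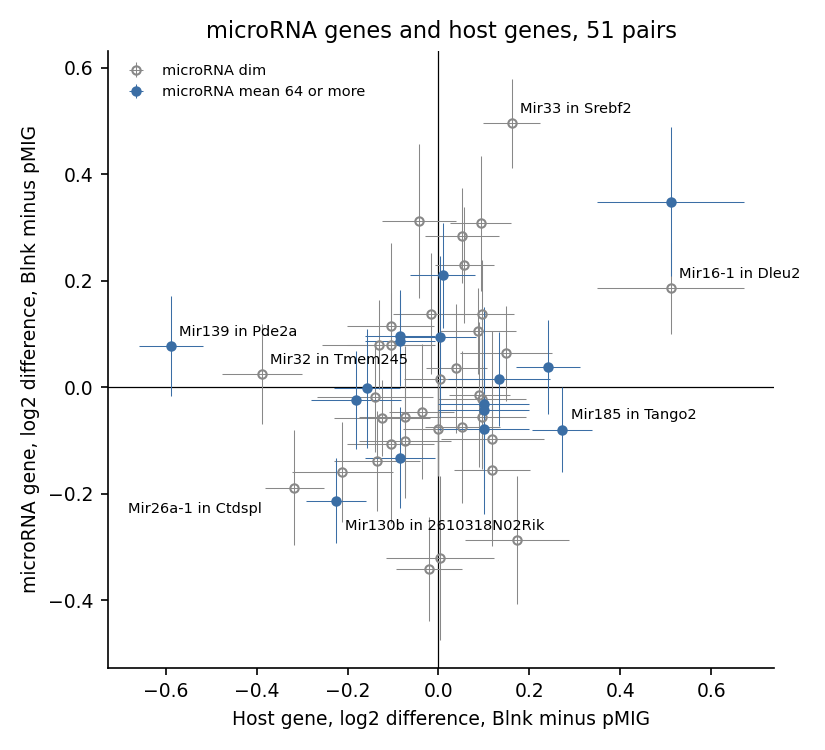
Log2 difference, Blnk minus pMIG, of each host gene against that of the microRNA gene inside it, for 51 pairs, with standard errors from limma; open points are dim microRNA genes. Pde2a lies at -0.59 with Mir139 at 0.08, and Mir33 lies at 0.50 with Srebf2 at 0.16.

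The machinery that makes and uses microRNAs was read from 3 lists, of which 42 of 44 genes were measured. In the nuclear list, 0 of 12 genes passed by limma, and 0 had an unadjusted p under 0.05. Drosha read 402, 508 and 492 with pMIG and 527, 463 and 447 with Blnk, a log2 difference of 0.04 (SE 0.111). Its partner Dgcr8 differed by 0.01 (SE 0.104) and the exporter Xpo5 by -0.01 (SE 0.0873).

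In the cytoplasmic and Argonaute list, 0 of 16 passed by limma. An unadjusted p under 0.05 was found for 3, 2 higher and 1 lower (18.8%, against 15.2% of all genes). None of the 16 was dim, and the share among all genes that were not dim was 22.4%. Dicer1 differed by 0.08 (SE 0.0742) and Ago2 by -0.06 (SE 0.0735). Ago4 read 60, 71 and 61 against 75, 85 and 92, a log2 difference of 0.39 with an adjusted p of 0.102. The turnover list had 1 call among 14 (7.14%, against 3.61% of all genes). Of the 14, 1 was dim, and 674 of the 10833 genes that were not dim were called. Zc3h12a, which encodes the ribonuclease Regnase-1 and is known to cut precursor hairpins and inflammatory messenger RNAs, read 172, 198 and 183 against 229, 242 and 251. Its log2 difference was 0.39 (SE 0.0793, limma adjusted p 0.0415), and the call was lost when any 1 array was left out. Lin28b, the fetal inhibitor of let-7, was dim and differed by -0.06.

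Of 25 textbook targets of lymphoid microRNAs, 23 were measured. Of these, 2 passed, both higher with Blnk (8.70%, against 2.51% of all genes called higher and 3.61% called either way). Only 3 of the 23 were dim. Among all 10833 genes that were not dim, 674 were called, 466 of them higher. Pdcd4, a translation inhibitor and target of miR-21, read 734, 815 and 880 with pMIG and 1227, 1341 and 1395 with Blnk, a log2 difference of 0.71 (SE 0.0909, limma adjusted p 0.00574). Mcl1, a survival factor and target of miR-29, went from 2234 ± 157 to 3084 ± 195 (SD, n = 3 each), a difference of 0.47 with an adjusted p of 0.0239, which was lost when any 1 array was left out. Myb, a target of miR-150, differed by -0.27 (adjusted p 0.0910), and Bcl2, a target of miR-15a, by -0.30 (adjusted p 0.0617). Neither passed. The median of the 23 was -0.04. Mir21 was not measured under the rule, and Mir29a and Mir29b-1 were dim, at mean intensities of 7.67 and 5.33. A link of Pdcd4 or Mcl1 to these microRNAs was not tested.

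The Blnk probe itself read 972, 926 and 1013 with pMIG and 2714, 3342 and 3022 with Blnk, a log2 difference of 1.64 (limma adjusted p 0.000101), and every Blnk sample lay above every pMIG sample. Whether that probe lies outside the deleted part of the gene is not known here. The pre-B genes Cd79a, Cd79b, Pax5, Ebf1, Vpreb1, Igll1 and Blk were bright, and Rag1 and Dntt were dim. Of the 9 measured, 3 were called by limma (33.3%, against 3.61% of all genes). Among all 10833 genes that were not dim, 674 were called. Blk, a kinase of the pre-B cell receptor, and Cd79a, its signalling chain, were higher with Blnk, at log2 differences of 0.88 and 0.31. Vpreb1, a surrogate light chain, was lower, at -0.68. An unadjusted p under 0.05 was found for 66.7% of the 9, against 15.2% of all genes and 22.4% of those that were not dim. Cd79b (0.35), Ebf1 (-0.25) and Igll1 (-0.19) did not pass, but their groups did not overlap. The part of these genes' movement in the microRNA values was not tested. Among markers of other cells, all 9 myeloid markers were dim and summed to 276 to 302 with pMIG and 282 to 305 with Blnk. The 7 T and NK markers summed to 311 to 383 and 331 to 433, and the 4 erythroid and megakaryocyte markers to 159 to 185 and 165 to 188, with no call among them. The 7 stromal and endothelial markers summed to 869 to 936 with pMIG and 1113 to 1221 with Blnk. Their single call was Pecam1, which B cells also express. Cdh5, which was dim, read 43, 38 and 37 with pMIG and 44, 45 and 52 with Blnk. Its groups did not overlap either, and its log2 difference was 0.26 (limma adjusted p 0.248). The groups of the other markers in this list overlapped. The part of these cells in the microRNA values was not tested. Array medians lay between 67.0 and 70.0.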

How the data were processed

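Total RNA of 6 samples was measured on 1 Affymetrix array each, 3 with pMIG and 3 with Blnk, grouped by the transduction label. Each deposited value is a linear array intensity, rounded to a whole number. The submitters' processing notes name RMA without a version. Genes were named from GEO's platform annotation, keeping probes with 1 symbol, and the GRCm38.p6 gene and microRNA tables of RefSeq gave positions, hosts and sequences. RNA was extracted with an RNeasy kit, per the labels; such columns retain mainly longer RNA.

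Log2 was taken with nothing added, and a linear model with moderated variances was fitted in limma 3.58.1 (R 4.3.3), group as the only term, two-sided, Benjamini-Hochberg over 19938 genes, threshold 0.05. The script was tested on simulated data. No probe's level was set against another probe's as an amount. Probes with several symbols (13 with a microRNA of the rule) entered no test.

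The members, the lists (nuclear processing, cytoplasmic processing, turnover, targets, cell markers) and the rule for naming genes were chosen with earlier results of these data known. The rule named called genes, the 8 highest and 8 lowest differences among genes that were not dim, the 8 brightest, clusters, known lymphoid microRNAs, core pathway genes and host genes. Other genes named, among them neighbours, further dim genes and probes with several symbols, were picked with their values in view. As alternatives, the fit was repeated with quantile normalization, median centring, the replicate block, dim genes left out, 16 added before log2, the mean of all probes, a mean-variance trend, and each array left out.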

Additional observations from a re-analysis of the deposited data

How the results depend on the processing

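Mir23a and Mir27a passed under all 13 alternatives, with log2 differences from -1.35 to -1.08 and from -1.31 to -1.09. The count of called microRNA genes ran from 2 to 4, and their median from -0.08 to -0.01. Over all genes, 1376 were called with dim genes left out, 1100 with 16 added, 1313 with a mean-variance trend, and 267 to 436 with any 1 of the 6 arrays left out, fewest without pMIG 3. Pathway calls were 0 with quantile normalization and with centring, 2 with dim genes left out, and 0 to 0 with 1 array left out. Host calls were 6 with dim genes left out, 4 with 16 added, 5 with the trend, and 1 to 1 with 1 array left out. Target calls were 4 with quantile normalization and with 16 added, 5 with dim genes left out and with the trend, and 1 to 1 with 1 array left out. The cause of these changes was not tested.

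Same-numbered samples did not deviate together (correlations of -0.187, 0.0575 and -0.120), and the labels do not say what the numbers stand for, so the samples were not treated as pairs. With the replicate block, 287 genes were called, with 2 microRNA genes (Mir23a and Mir27a), 0 pathway genes, 1 host and 1 target. The low signal of 121 dim genes and 3 arrays a group limit what could be resolved.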
